A study of Mus musculus with 6 samples.

Results

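Transcripts of 10 photoreceptor transcription factors were examined in whole mouse retina by RNA sequencing: *Crx*, *Otx2*, *Nrl*, *Nr2e3*, *Neurod1*, *Mef2d*, *Rorb*, *Prdm1*, *Thrb* and *Rxrg*. They were chosen by symbol as regulators of photoreceptor fate and maintenance, and are 10 of the 31169 genes in the count table. The study compared retina from C57BL/6 mice, male per its methods, whose eyes were injected into the anterior chamber at 1 month of age with either saline or 15 μm microbeads, which raise intraocular pressure (IOP) in this glaucoma model. Retina was collected 4 weeks later, at 2 months of age, and 3 libraries were available for each group. No allele or transgene was listed for either group, and the saline eyes had received an injection too.

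Rod and cone photoreceptors are specified and kept in their mature state by a small network of transcription factors that act together on shared target genes. OTX2 and its close relative CRX are homeodomain proteins that switch on photoreceptor genes, NRL and NR2E3 direct the precursor toward a rod and hold cone genes silent, and the thyroid hormone receptor THRB and retinoid receptor RXRG act in cones. Rods are by far the most numerous cells of the mouse retina, so that transcripts of rod regulators are prominent in whole-retina RNA.

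To show the sequence that these factors could read at each other's genes, the 250 bases before each RefSeq start of the 10 genes (4 starts for *Otx2*, 2 each for *Rorb*, *Thrb* and *Rxrg*, and 1 for each other gene) were searched on both strands for TAATCC (the CRX and OTX2 core site), TGCTGA (an NRL half-site), CANNTG (the E-box bound by NEUROD1 and other basic helix-loop-helix proteins) and AGGTCA (a nuclear receptor half-site). A match is a description of the letters and not evidence of binding, and matches of different motifs that shared bases were each counted. Over all 32851 RefSeq mouse promoters of the same length, 6.25% held TAATCC, 16.1% held TGCTGA, 66.2% held CANNTG and 14.0% held AGGTCA. The *Crx* promoter held 2 copies of TAATCC, whose first bases lie 94 and 21 bases before the start, both on the opposite strand as GGATTA. At least 2 copies of this site occurred in 97 promoters, or 0.295% of all. Among the other 9 genes, single copies of TAATCC lay at position -211 from 1 of the *Otx2* starts and at -46 from 1 of the *Thrb* starts. The stretch is shown because it carries the site of the protein that *Crx* itself encodes, with GGATTA in capitals (GRCm38.p6, chr7:15879969-15880205, minus strand, 237 bases, ending 14 bases before the start):

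Crx: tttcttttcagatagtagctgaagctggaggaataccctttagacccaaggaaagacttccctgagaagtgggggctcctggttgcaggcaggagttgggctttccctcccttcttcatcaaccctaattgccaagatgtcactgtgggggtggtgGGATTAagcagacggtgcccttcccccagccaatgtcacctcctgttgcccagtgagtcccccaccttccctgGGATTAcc

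The *Nr2e3* window held 5 E-boxes and none of the other motifs. The share of all promoters with several copies was counted for TAATCC only, so whether 5 E-boxes are unusual is not known. Its RefSeq start lies inside the longer gene model of the GENCODE annotation, which begins further upstream. The 212 bases outside annotated exons are shown for these 5 sites, with each E-box in capitals (GRCm38.p6, chr9:59950118-59950329, minus strand):

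Nr2e3: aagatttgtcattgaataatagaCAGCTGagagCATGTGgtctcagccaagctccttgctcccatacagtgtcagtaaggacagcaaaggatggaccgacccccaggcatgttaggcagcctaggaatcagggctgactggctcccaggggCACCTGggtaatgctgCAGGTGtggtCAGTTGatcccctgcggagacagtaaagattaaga

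*Nrl* and *Neurod1* were the members past the threshold of the edgeR test described below. The E-boxes near their starts are shown in the same way. E-boxes are not particular to these genes. They also lay before starts of *Nr2e3*, *Otx2*, *Rorb*, *Thrb*, *Rxrg* and *Prdm1*, whereas *Crx* and *Mef2d* had none. The whole *Nrl* window lies within annotated exons, so that only the 30 bases around each of its 2 E-boxes are given (GRCm38.p6, minus strand, chr14:55524346-55524375 and chr14:55524254-55524283). For *Neurod1*, the 135 bases outside the annotated exon hold 1 E-box (GRCm38.p6, chr2:79456752-79456886, minus strand). The rest of its window, within the exon, held 2 TGCTGA half-sites. TGCTGA also lay before starts of *Otx2*, *Rorb* and *Mef2d*, and AGGTCA before starts of *Thrb* and *Rxrg*. The stretches with E-boxes are:

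Nrl, first E-box: gagaactgatagCACCTGtctttcactggc

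Nrl, second E-box: gctcgaggaccaCAGATGatctcagggaac

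Neurod1: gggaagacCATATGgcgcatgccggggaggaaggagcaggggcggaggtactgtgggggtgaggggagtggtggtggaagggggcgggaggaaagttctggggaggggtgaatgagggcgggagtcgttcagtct

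The saline libraries held 36085737 to 46481382 counts and the microbead libraries 13574949 to 19834366 counts. Mitochondrial genes took 3.19 to 3.57% of counts in saline and 8.90 to 10.6% in microbead libraries. The library names carried a different prefix in each group. What the prefix marks is not given, and it cannot be told apart from treatment. Marker lists varied among the saline libraries: the 10 markers of retinal ganglion cells (RGCs) summed to 329 CPM (counts scaled to a library size of 1000000) in saline replicate 1 and to 831 to 1249 CPM in the other 5 libraries, and the lens markers to 156 CPM in saline replicate 3 and to at most 13.6 CPM elsewhere. The 8 retinal pigment epithelium markers, cells that also express *Otx2*, ran from 12.3 CPM in saline replicate 1 to 245 CPM in saline replicate 3, and from 107 to 127 CPM in microbead retina. By the edgeR test described below, 4 of the 12 Müller glia markers were lower in microbead retina (*Dkk3*, *Sox9*, *Crym* and *Vim*). So were 4 of 8 endothelial markers (*Esam*, *Tie1*, *Cldn5* and *Flt1*). Of 12 bipolar cell markers 1 was lower (*Bhlhe23*), and of 5 horizontal cell markers 1 (*Onecut2*). Of all genes tested, 6.31% were lower. No tested marker of amacrine cells (10), RGCs (10), pigment epithelium (8), microglia (8) or lens (2) passed in either direction. Calls in either direction over all genes fell to 0.238% without microbead replicate 3. The part of these differences in the results that follow was not tested. The labels give each library its own tag number but do not say that the 3 libraries of a group came from separate animals, so that p-values measure the spread between these libraries, which may be technical.

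All 10 factors passed the filter on low counts. In microbead retina the rod-determining gene *Nrl* was lower, *Neurod1* was higher, and the other 8 factors did not pass the threshold of edgeR's quasi-likelihood test (Benjamini-Hochberg adjusted p under 0.05). Across all 17707 genes tested, 12.8% passed that threshold, with 6.31% lower and 6.46% higher, and 2 of 10 members is to be read against that share. DESeq2 at the same adjusted p called the same 2 members, and 17% of the genes it tested. The methods of the study also required an absolute fold change above 2. Neither member reached that cut (DESeq2 log2 fold change -0.96 for *Nrl* and 0.86 for *Neurod1*). The groups did not overlap in 4 members, *Nrl* (lower) and *Crx*, *Neurod1* and *Rorb* (higher). Of all genes tested, 37.8% had no overlap and 18.9% had none and were lower. The median log2 fold change of the 10 was 0.01, against -0.03 over all genes. In bulk retina, fewer cells of a type and less RNA per cell cannot be told apart.

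**Figure D1:**
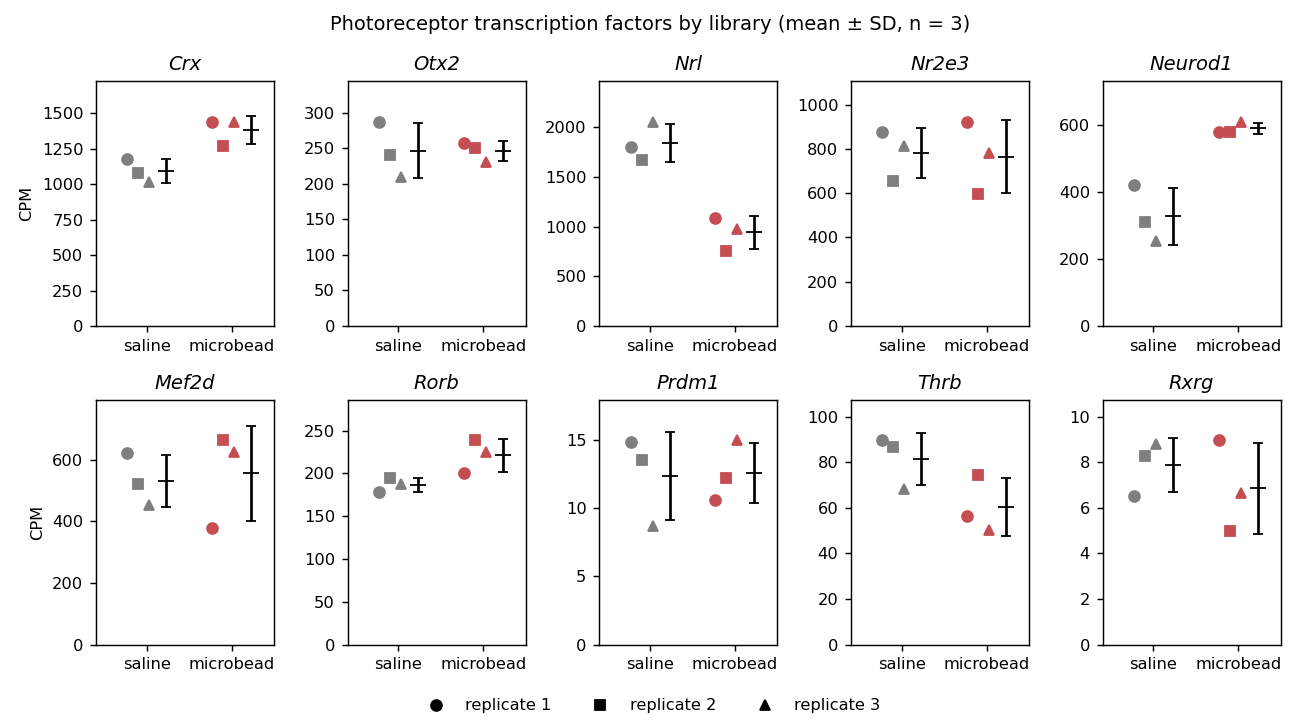
Expression of the 10 factors in each library, in CPM on a linear axis that starts at 0, for saline (grey) and microbead (red) retina; symbols mark the replicates and black bars the mean ± SD of 3 libraries. The microbead libraries lie below every saline library for *Nrl* and above every saline library for *Crx*, *Neurod1* and *Rorb*, and the groups overlap for the other 6 genes.

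*Crx* encodes the homeodomain activator common to rods and cones (ENSMUSG00000041578.15, GRCm38, chr7:15865947-15879968). It was measured at 1181, 1081 and 1018 CPM in the saline libraries and at 1439, 1268 and 1441 CPM in the microbead libraries. Every microbead library was above every saline library, and the mean was 26.5% higher. The log2 fold change of 0.34 (standard error 0.17, 95% interval -0.04 to 0.72) did not pass edgeR's threshold (adjusted p = 0.202).

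*Otx2*, which acts upstream of *Crx* and is also used by bipolar cells and pigment epithelium (ENSMUSG00000021848.15, chr14:48657677-48673819), was at 287, 241 and 210 CPM in saline and at 257, 251 and 231 CPM in microbead retina. The microbead libraries lay inside the saline range. Group means were 246 ± 38.7 CPM and 246 ± 13.7 CPM (SD, n = 3 each), and the 95% interval of the log2 fold change was -0.39 to 0.39 (edgeR adjusted p = 0.999). Of the *Otx2* exon bases, 154 are shared with the opposite-strand gene *Otx2os1*, at 380 to 1161 counts a library. Whether strand was used in counting is not given in the sources used here.

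*Nrl* encodes the leucine zipper protein of the Maf family that commits a precursor to the rod fate and then works with CRX at rod genes (ENSMUSG00000040632.15, chr14:55518978-55524981). Its levels were 1802, 1671 and 2053 CPM in the saline libraries and 1087, 758 and 978 CPM in the microbead libraries. Even the highest microbead library was far below the lowest saline library, and mean expression fell by 48.9%. The log2 fold change was -0.97 (standard error 0.20, 95% interval -1.41 to -0.53, edgeR adjusted p = 0.0192), 1.96-fold lower in microbead retina. Leaving out any single library gave values from -1.09 to -0.82 for *Nrl*, and the call was lost without saline replicate 2 (-1.04, edgeR adjusted p = 0.0588), microbead replicate 2 (-0.82, adjusted p = 0.0659) or microbead replicate 3 (-1.01, adjusted p = 0.0883). The share of all genes called without each of these libraries was 1.68%, 4.01% and 0.238%. The lowest *Nrl* count was 10501 in a library, for which counting error alone is 0.976%.

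*Nr2e3* encodes the orphan nuclear receptor that NRL switches on in rods, where it activates rod genes and represses cone genes (ENSMUSG00000032292.8, chr9:59942771-59960659). Its levels were 874, 654 and 813 CPM in saline and 922, 594 and 781 CPM in microbead retina. The microbead libraries held both the highest and the lowest value of all 6, and the group means were 780 ± 114 CPM and 766 ± 165 CPM (SD, n = 3 each). The log2 fold change was -0.03, with a 95% interval of -0.50 to 0.45 (edgeR adjusted p = 0.946). The interval for *Nrl* was -1.41 to -0.53, and the ratio of these genes within each library is given below.

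*Neurod1* encodes a basic helix-loop-helix factor of photoreceptors, bipolar cells and some amacrine cells that is needed to maintain photoreceptors (ENSMUSG00000034701.9, chr2:79452521-79456751). It was at 420, 310 and 253 CPM in the saline libraries and at 579, 580 and 609 CPM in the microbead libraries. The microbead libraries lay close together and all above the saline libraries, which were spread more widely, with a coefficient of variation of 25.8% against 2.90%. Mean expression was 79.8% higher, with a log2 fold change of 0.85 (standard error 0.21, 95% interval 0.38 to 1.31, edgeR adjusted p = 0.0322). The change stayed between 0.69 and 1.06 with each library left out, but the call held only without saline replicate 1 (edgeR adjusted p = 0.0137, where 15.1% of all genes were called). It was lost without saline replicate 2 (0.80, edgeR adjusted p = 0.123), saline replicate 3 (0.69, 0.0664), microbead replicate 1 (0.86, 0.0707), microbead replicate 2 (0.88, 0.0736) or microbead replicate 3 (0.82, 0.117). Of all genes, 8.42% were called without saline replicate 3 and 3.89% without microbead replicate 1. *Neurod1* shares 201 exon bases, 7.37% of its exons, with *Cerkl* on the same strand, which held 140 to 1097 counts a library against 8029 to 15813 for *Neurod1*.

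*Mef2d*, a MADS-box factor found in many cell types that joins CRX at photoreceptor enhancers (ENSMUSG00000001419.17, chr3:88142372-88172086), was at 621, 520 and 451 CPM in saline and at 379, 662 and 626 CPM in microbead retina. Microbead replicate 1 was the lowest of all 6 libraries and the other 2 microbead libraries the highest. The group means were 531 ± 85.4 CPM and 556 ± 154 CPM (SD, n = 3 each; log2 fold change 0.07, 95% interval -0.47 to 0.60, edgeR adjusted p = 0.878). Without microbead replicate 1 the log2 fold change was 0.28. An opposite-strand gene, *1700113A16Rik*, covers 531 of its exon bases and held at most 59 counts a library.

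*Rorb*, a retinoid-related orphan receptor that acts before *Nrl* in the rod lineage and is also used by horizontal and amacrine cells (ENSMUSG00000036192.15, chr19:18930605-19111196), was at 178, 195 and 187 CPM in saline and at 201, 239 and 225 CPM in microbead retina. The groups did not overlap, although the nearest libraries were only a few CPM apart. The log2 fold change of 0.25 (95% interval -0.11 to 0.60) did not pass the threshold (edgeR adjusted p = 0.322).

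*Prdm1* encodes BLIMP1, a zinc finger repressor that keeps young photoreceptors from the bipolar fate and is low in the mature retina (ENSMUSG00000038151.12, chr10:44437177-44528501). It was at 14.9, 13.5 and 8.73 CPM in saline and at 10.7, 12.2 and 15.0 CPM in microbead retina. The groups overlapped over most of their range (log2 fold change 0.03, 95% interval -0.56 to 0.61, edgeR adjusted p = 0.960).

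The cone receptors were the members with the fewest counts apart from *Prdm1*. *Thrb*, the thyroid hormone receptor needed for medium-wavelength opsin (ENSMUSG00000021779.16, chr14:17660261-18038090), was at 89.6, 86.6 and 68.2 CPM in saline and at 56.3, 74.5 and 50.2 CPM in microbead retina. Microbead replicate 2 lay above saline replicate 3, so that the groups overlapped. The log2 fold change was -0.43 (95% interval -0.88 to 0.02, edgeR adjusted p = 0.173). *Rxrg*, a retinoid X receptor that shapes the opsin choice of cones and also marks some ganglion cells (ENSMUSG00000015843.10, chr1:167598384-167639623), was at 6.53, 8.25 and 8.82 CPM in saline and at 8.96, 4.98 and 6.63 CPM in microbead retina. The groups overlapped throughout (log2 fold change -0.19, 95% interval -0.84 to 0.45, edgeR adjusted p = 0.684). Its lowest count was 69, with a 95% Poisson interval of 53.7 to 87.3 that covers counting error only.

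**Figure D2:**
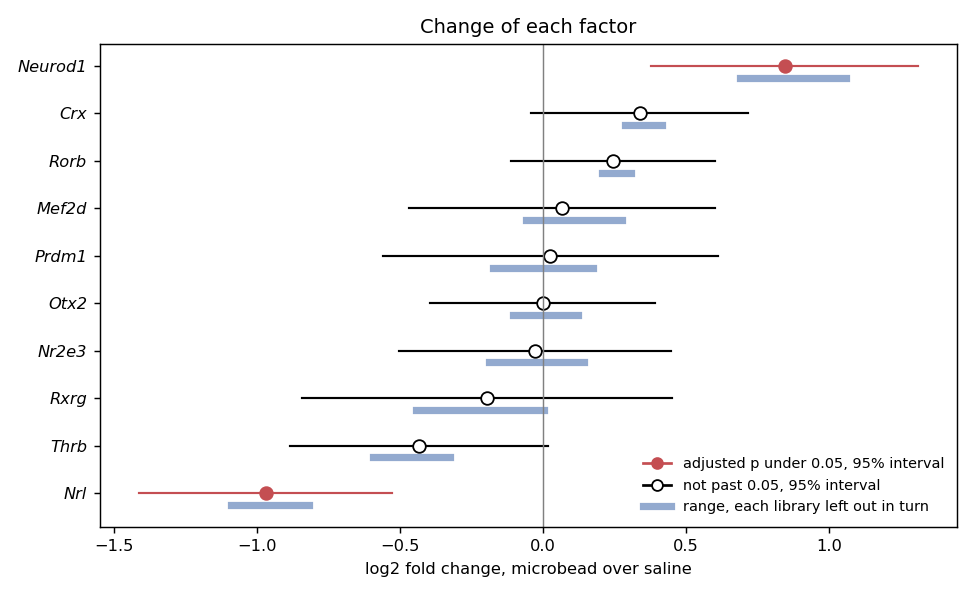
Log2 fold change of each factor (microbead over saline) with its 95% interval from edgeR; filled red points passed an adjusted p of 0.05, and blue bars span the values with each of the 6 libraries left out in turn. *Nrl* at -0.97 and *Neurod1* at 0.85 are the filled points, and the bars of *Nr2e3*, *Otx2*, *Prdm1*, *Mef2d* and *Rxrg* cross 0.

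To compare levels between genes, CPM was divided by the length of each gene's annotated exons in kb. That length joins the exons of all annotated transcripts, 7 for *Nrl*, and can exceed the length of the transcripts present. In saline retina *Crx* (346 ± 25.9 CPM per kb, SD, n = 3) and *Nrl* (324 ± 34.1) stood highest, and their libraries overlapped. *Nr2e3* (232 ± 33.8) and *Neurod1* (120 ± 31.0) followed, *Neurod1* overlapping with *Mef2d* (88.6 ± 14.3). *Otx2* was at 58.3, *Rorb* at 16.9, *Thrb* at 9.21 to 12.1, *Rxrg* at 3.43 and *Prdm1* at 2.22 CPM per kb, with no overlap between neighbours. In microbead retina *Crx* was alone at the top (438 ± 31.4 CPM per kb), *Nr2e3* (227 ± 48.8) and *Neurod1* (216 ± 6.26) overlapped, and *Nrl* (165 ± 29.4) ranked below both, without overlap with *Neurod1*. The order of the 6 genes below it was the same as in saline, from *Mef2d* at 92.8 to *Prdm1* at 2.26 CPM per kb, and only *Rxrg* and *Prdm1* overlapped. The rank of *Nrl* depends on the exon lengths used. Without division by length, mean *Nrl* in microbead retina (941 CPM) was above *Nr2e3* (766) and *Neurod1* (589). In saline retina mean *Nrl* (1842 CPM) was above *Crx* (1093).

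**Figure D3:**
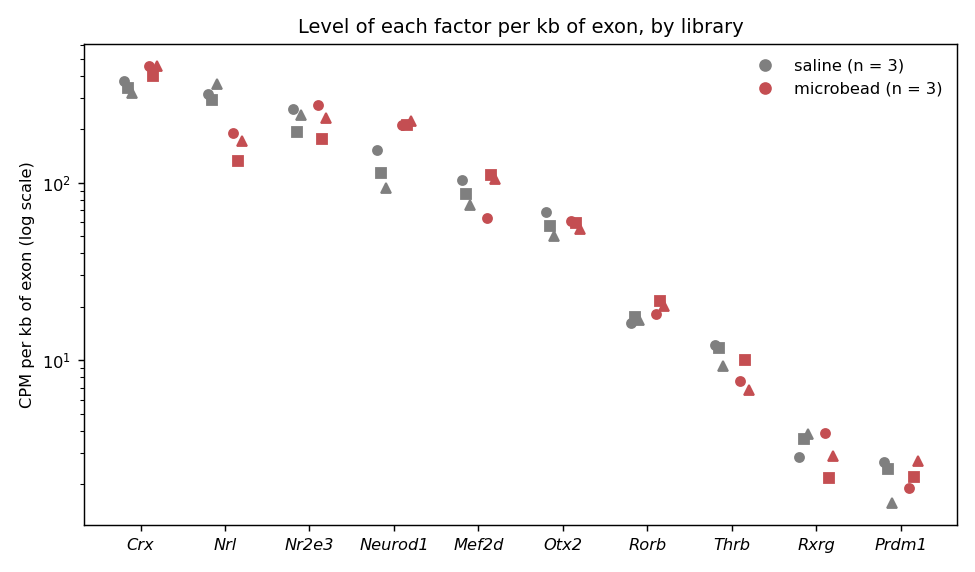
Level of each factor in CPM per kb of exon on a log axis, in order of the saline mean, for each saline (grey) and microbead (red) library; circles, squares and triangles are replicates 1, 2 and 3. The factors span from 346 CPM per kb for *Crx* to 2.22 for *Prdm1* in saline retina. Per kb, *Nrl* is level with *Crx* in saline and has a lower mean than *Nr2e3* in microbead retina, which depends on the exon lengths used.

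Ratios of counts within a library do not depend on how libraries are scaled. There were 1.53, 1.55 and 2.02 *Nrl* counts for each *Crx* count in the saline libraries, and 0.755, 0.598 and 0.679 in the microbead libraries. The ratio was lower in every microbead library than in every saline library, by a log2 difference of -1.32. As these are counts of genes with exons of different length, the ratio does not rank their levels. *Nr2e3* over *Nrl* was 0.485, 0.391 and 0.396 in saline and 0.848, 0.783 and 0.798 in microbead retina (log2 difference 0.94). *Neurod1* over *Crx* (log2 difference 0.54) and *Otx2* over *Crx* (-0.33) also did not overlap between the groups, whereas *Nr2e3*, *Rorb*, *Prdm1* and *Mef2d* over *Crx* and *Rxrg* over *Thrb* did. With 3 libraries against 3, a two-sided exact permutation test cannot give a p below 0.1, the value of each ratio without overlap, which is 0.225 adjusted over the 9 ratios.

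Against the summed counts of 22 rod genes that CRX, NRL and NR2E3 are known to drive, *Nrl* was at 19.9, 19.1 and 17.95 counts per 1000 rod counts in saline and at 11.7, 9.68 and 10.4 in microbead libraries. *Nrl* was therefore lower in relation to this sum of rod transcripts too (log2 difference -0.84). The sum is weighted toward the most abundant rod genes. *Neurod1* (1.01) and *Crx* (0.47) were higher on this scale without overlap. The other 7 factors overlapped between the groups. For these 3 ratios the exact permutation p was 0.1, the smallest possible, and 0.333 adjusted over the 10 ratios. Of all counts of the 10 factors together, *Nrl* made up 36.1 ± 3.91% in saline and 19.6 ± 2.47% in microbead retina, *Crx* 21.4 ± 1.27% and 28.9 ± 0.319%, and *Neurod1* 6.39 ± 1.34% and 12.3 ± 0.665% (SD, n = 3 each). Shares of a common total are not independent, and a lower *Nrl* share by itself raises the shares of the other factors.

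**Figure D4:**
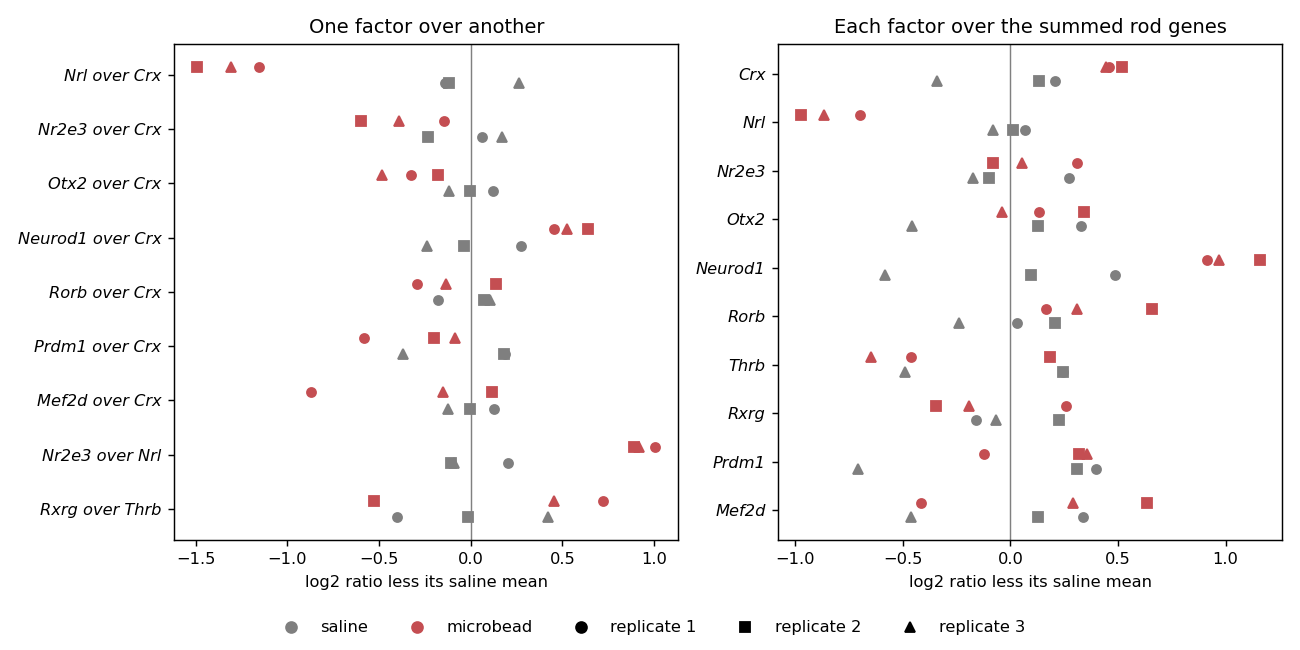
Log2 ratios of counts within each library, less their saline mean, for pairs of factors (left) and for each factor over the 22 summed rod genes (right), in saline (grey) and microbead (red) libraries. *Nrl* over *Crx* (difference -1.32), *Nrl* over rod genes (-0.84) and *Neurod1* over rod genes (1.01) show no overlap between the groups.

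Of 20 close relatives of the 10 factors in the same gene families, 18 could be tested, of which 1 was lower and 0 higher (6.31% and 6.46% of all tested genes), with a median log2 fold change of -0.24. The gene that fell was *Rora*, the retinoid-related orphan receptor closest to *Rorb*, from 252, 274 and 278 CPM in saline to 149, 181 and 153 CPM in microbead retina (log2 fold change -0.73, edgeR adjusted p = 0.0248). The *Rora* call was lost without saline replicate 2 (adjusted p = 0.104) or without microbead replicate 1, 2 or 3 (0.0592, 0.0527 and 0.107 from edgeR). The next relatives did not pass: *Neurod6* had a log2 fold change of 1.34 (edgeR adjusted p = 0.0619), *Maf*, a relative of *Nrl*, -0.57 (0.111), and *Rxra* -0.49 (0.119).

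Of 32 other regulators of the photoreceptor network, 4 were lower and 4 higher (6.31% and 6.46% of all tested genes), with a median log2 fold change of 0.00. The largest rise was that of *Samd11*, which encodes a Polycomb-linked repressor of non-rod genes in rods, from 282, 237 and 187 CPM in saline to 556, 633 and 701 CPM in microbead retina. All microbead libraries were well above all saline libraries (log2 fold change 1.42, edgeR adjusted p = 0.00956), and the call was lost only without microbead replicate 3 (1.33, adjusted p = 0.0629). *Kat2a*, a histone acetyltransferase, rose (0.80, edgeR adjusted p = 0.0344), while *Sall3*, a zinc finger gene of cones and horizontal cells (-0.98, 0.0300), and *Onecut2*, a regulator of cone and horizontal cell fate (-1.36, 0.0335), fell. Also past the threshold, and named after their values were seen, were *Nono* (0.62), which rose, and *Sp4* (-0.82) and the retinal homeobox gene *Rax* (-0.92), which fell (edgeR adjusted p between 0.0362 and 0.0477). Of the 6 fits with 1 library left out, *Kat2a* and *Sall3* passed in 1 each and *Onecut2* in 2 (edgeR adjusted p up to 0.1303, 0.115 and 0.109). *Nono* and *Rax* passed in 1 each and *Sp4* in 2 (adjusted p up to 0.168, 0.132 and 0.143 from edgeR). *Rax* passed under 5 of the 11 settings that kept every library, and those that lost it included RLE scaling (adjusted p = 0.0513), upper-quartile scaling (0.0562), sizes without mitochondrial genes (0.0507), equal depth (0.0553) and an offset for GC and length (0.0701 from edgeR). *Nono* was lost with no filter on low counts (adjusted p = 0.0685 from edgeR). In the fits with 1 library left out, the number of the 32 regulators past the threshold ranged from 0, without microbead replicate 3, to 6, without saline replicate 1 (15.1% of all genes called). It was 1 without saline replicate 2 or microbead replicate 1, 2 without microbead replicate 2 and 4 without saline replicate 3. The shares of all genes called without each of the other libraries are those given above.

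Most rod genes did not pass the test. Of the 22, 1 was lower and 1 higher, where 6.31% and 6.46% of all tested genes were called, with a median log2 fold change of -0.22, and they summed to 97401 ± 14770 CPM in saline and 88343 ± 8683 CPM in microbead retina (SD, n = 3 each). *Rp1l1*, a gene of the photoreceptor axoneme, fell from 743, 647 and 663 CPM to 308, 447 and 387 CPM (log2 fold change -0.85, edgeR adjusted p = 0.0248). *Pdc*, whose product phosducin binds transducin βγ subunits, rose from 1468, 1691 and 2562 CPM to 4845, 3405 and 3282 CPM (1.01, edgeR adjusted p = 0.0362). *Guca1b* (-0.59, edgeR adjusted p = 0.0598) and *Gnb1* (-0.58, 0.0632) were next and did not pass. Without saline replicate 2 or microbead replicate 3 no rod gene passed. *Rp1l1* was lost also without microbead replicate 1 (adjusted p = 0.0582), and *Pdc* without saline replicate 1 (0.0561) or microbead replicate 1 or 2 (0.106 and 0.0736 from edgeR). *Pdc* was lost too with an offset for GC and length (0.87, edgeR adjusted p = 0.0680).

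Of 16 cone genes, 15 could be tested, of which 1 rose and 0 fell (6.46% and 6.31% of all tested genes), with a median log2 fold change of -0.20. *Arr3*, cone arrestin, was at 117, 110 and 65.1 CPM in saline and at 252, 254 and 286 CPM in microbead retina. Each microbead library held more than every saline library, with a log2 fold change of 1.44 (edgeR adjusted p = 0.0126) that was lost only without microbead replicate 3 (1.37, adjusted p = 0.0700). *Kcnv2*, a potassium channel subunit of rods and cones (-0.61, edgeR adjusted p = 0.0505), *Gngt2*, the cone transducin γ subunit (0.90, 0.0507), and *Otop3* (-0.71, 0.120) did not pass. *Gngt2* passed under 7 of 11 other settings and *Kcnv2* under 4, but each passed in 0 of the 6 fits with 1 library left out. In those fits the number of cone genes past the threshold ranged from 0 to 3. It was 3 without saline replicate 1, where 15.1% of all genes were called. These 3 did not include *Gngt2* (edgeR adjusted p = 0.0712) or *Kcnv2* (0.105).

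**Figure D5:**
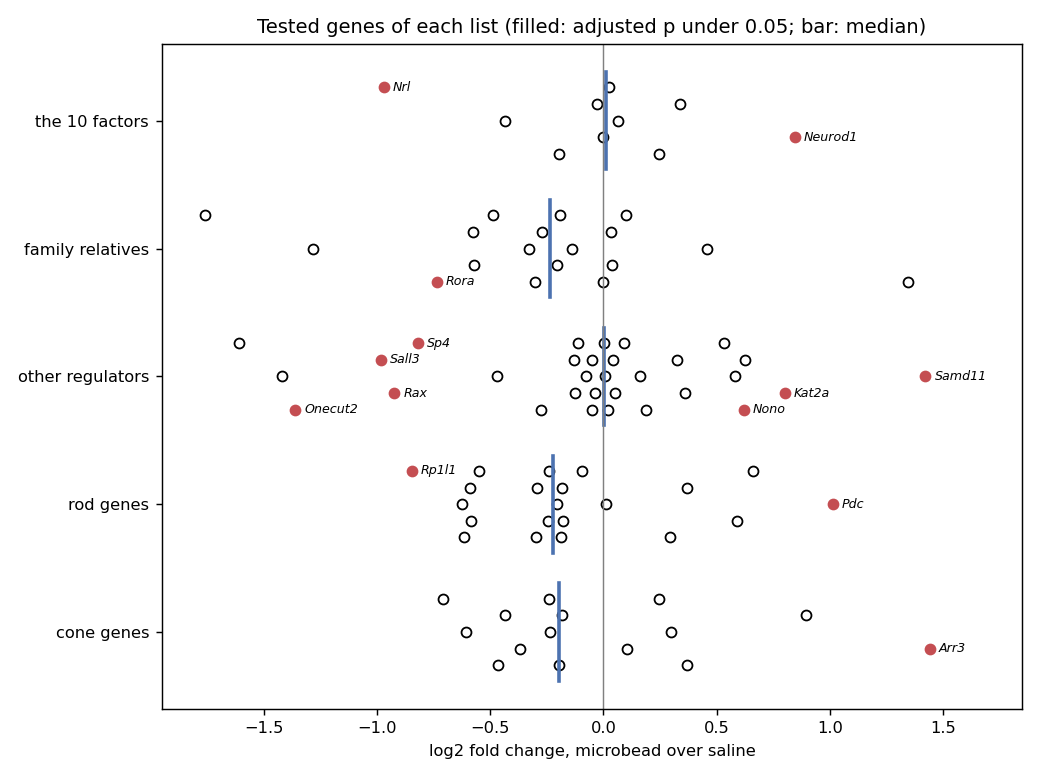
Log2 fold change (microbead over saline) of tested genes among the 10 factors, their family relatives, other regulators, rod genes and cone genes, apart from genes not reported here; filled red points passed edgeR's adjusted p of 0.05 and are named, blue bars are medians of the whole lists, and height within a row has no meaning. List medians lie between -0.24 and 0.01, while *Nrl* and *Neurod1* stand at opposite ends of the 10 factors.

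The genes whose profiles over the 6 libraries were most like those of 3 of the factors were found among 10088 protein-coding genes with a mean of at least 10 CPM, by the root mean square difference of centred log2 CPM. Among those nearest to *Nrl* were *Aar2* (0.066) and *Saraf* (0.070), with log2 fold changes of -0.92 and -1.08. Nearest to *Crx* were *Tesk2* (0.040), *Scly* (0.047) and *Stx18* (0.047), and nearest to *Nr2e3* were *Wdyhv1* (0.046), *Rpl10a* (0.047) and *2310011J03Rik* (0.051). A gene chosen for a like profile has a like fold change by that choice. None of these genes was on the lists of rod (22) or cone (16) genes. Those lists are too short beside the 10088 genes for their absence to be informative.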

How the data were processed

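Per the methods of the study, RNA of whole retina was made into stranded, polyA-enriched libraries and sequenced as 100-bp pairs. The authors aligned reads to GRCm38.p5 with STAR 2.5.3a, using GENCODE vM12, and deposited a count of reads per gene from featureCounts (version 1.15.2 as stated). The handling of strand and of reads with several matches in counting is not given in the sources used here. The table also holds the authors' DESeq2 1.14 comparison (mean, fold change, p-values and a significance label), which was not used.

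Counts were tested with edgeR 4.0.16 (glmQLFit, glmQLFTest, TMM, filterByExpr with a minimum count of 10 and total of 15; R 4.3.3), as a two-sided test, p-values being adjusted by Benjamini-Hochberg over all 17707 genes tested. CPM used TMM-scaled library sizes. Alternatives used DESeq2 1.42.0, limma-voom 3.58.1, other scalings and filters, and libraries left out. Ratios were tested by exact permutation (Python 3.11.15), and the Poisson interval used SciPy 1.17.1. Counts of no 2 replicates of a group agreed within counting noise (chi-square 22.0 to 121 per degree of freedom). Positions and exon lengths are from GENCODE vM21 (GRCm38) and promoters from RefSeq (GRCm38.p6), where all 10 genes matched.

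The members and lists were chosen with earlier results of these data known. Named genes were the 10 members, up to 4 genes with the smallest adjusted p in each list of relatives, regulators, rod and cone genes, and the 3 genes most like *Crx*, *Nrl* and *Nr2e3* in profile. Some genes that these rules select are not reported here.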

Additional observations from a re-analysis of the deposited data

How the results depend on the processing

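*Nrl* was past the threshold under all 11 alternatives that kept every library (log2 fold change -1.02 to -0.89) and *Neurod1* under 10 of them (0.72 to 0.89), the exception being the fit with the replicate number as a block. The replicate numbers did not pair the libraries: deviations of same-numbered libraries correlated at -0.04, 0.14 and 0.01, and not every library correlated best with its own number. With the replicate block, 905 genes passed (480 higher, 425 lower), *Nrl* alone of the factors (1 of 10), 0 relatives, 1 other regulator and 0 rod genes, and *Neurod1* had an edgeR adjusted p of 0.0578. Of all genes, 2261 passed in the reported fit, 3720 with no filter on low counts (1511 higher, 2209 lower) and 3556 with DESeq2. The number of relatives past the threshold was 2 with no filter, with at least 10 counts in every library and with an offset for GC and length, and 3 with DESeq2. Rod genes numbered 4 with no filter and 5 with DESeq2, and cone genes 2 under 7 settings (RLE and upper-quartile scaling, sizes without mitochondrial genes, at least 10 counts, limma-voom, the GC and length offset, and thinning to equal depth) and 3 with no filter or DESeq2. With 1 library left out, 46 to 2621 genes passed, 0 to 2 factors, 0 to 1 relatives, 0 to 6 other regulators, 0 to 2 rod genes and 0 to 3 cone genes. The cause of these shifts was not tested.

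Directions turned only for members and ratios whose log2 difference was small or poorly determined, from -0.19 (*Rxrg*) to 0.21 (*Rxrg* over *Thrb*). *Otx2* was above 0 under RLE scaling (0.021), upper-quartile scaling (0.043), sizes without mitochondrial genes (0.021), at least 10 counts (0.0087), DESeq2 (0.0069), limma-voom (0.0099), the replicate block (0.0098) and equal depth (0.0073). *Nr2e3* was at 0.015 under upper-quartile scaling and *Prdm1* at -0.021 with no filter. With 1 library left out, the log2 fold change ranged from -0.19 to 0.14 for *Nr2e3*, -0.10 to 0.12 for *Otx2*, -0.44 to 0.0036 for *Rxrg*, -0.17 to 0.17 for *Prdm1* and -0.058 to 0.28 for *Mef2d*. In the same way ratios turned for *Rorb* over *Crx* (-0.21 to 0.0026), *Rxrg* over *Thrb* (-0.039 to 0.59) and, over rod genes, *Nr2e3* (-0.013 to 0.23), *Otx2* (-0.084 to 0.31), *Rxrg* (-0.27 to 0.032), *Prdm1* (-0.17 to 0.38) and *Mef2d* (-0.061 to 0.46). Scaling moved the median of all genes by less than 0.1 (log2).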
